A study of Mus musculus with 10 samples.

Results

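The fibroblast growth factor (FGF) genes described here are 10 of the 25700 genes counted in regenerating mouse muscle: the ligand genes *Fgf1*, *Fgf2*, *Fgf6*, *Fgf7* and *Fgf10*, the intracellular family member *Fgf11*, and the receptor genes *Fgfr1*, *Fgfr2*, *Fgfr3* and *Fgfr4*. They were chosen by name, and the list was drawn up because *Fgf7* had a small p among the genes with lower counts after deletion of miR-501. The genotype difference of *Fgf7* is therefore given as a description. All 10 genes had reads in each mouse and passed the filter on low counts, which kept 14410 genes.

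mRNA was sequenced from whole tibialis anterior (TA) muscle of 5 Pax7Cre and 5 miR-501KO mice, male, 12 weeks old and of strain C57BL/6. Each muscle was taken 6 days after injection of cardiotoxin (CTX), a snake venom toxin that kills muscle fibers and sets off their regrowth from stem cells. Both groups carried a Cre recombinase expressed from the *Pax7* locus, and the miR-501KO mice also carried a floxed miR-501 allele on their single X chromosome (Pax7CremiR-501fl/Y). The labels give the genotypes as wild type and miR-501 -/-. According to the study's methods the Cre is not inducible and was meant to remove miR-501 from the myogenic lineage. By that design, other cells of the muscle would keep the miRNA and its loss would precede the injury. Neither was measured in these data. Uninjured muscle was not analysed here.

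FGFs are secreted proteins that bind receptor tyrosine kinases together with heparan sulfate on the cell surface and signal largely through the Ras and MAP kinase cascade. In muscle they are known for keeping activated stem cells in the cell cycle and delaying their differentiation, and fibroblast-like cells, fibers and the stem cells themselves are sources of different family members. *Fgf11* belongs to a subgroup that stays in the cell, where its members bind voltage-gated sodium channels and do not act through the receptors as secreted ligands do.

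The deleted miRNA and the letters it could pair with in these genes come first. Mature miR-501-3p lies on the minus strand of chrX:7241270-7241291 (GRCm38.p6, RefSeq). It is 22 bases long, and its seed, bases 2 to 8, is in capitals.
mmu-miR-501-3p: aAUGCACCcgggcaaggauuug
The complement of the seed, GGTGCAT, was searched on the sense strand of the annotated 3′ untranslated regions of GENCODE M21. It occurred in 0 of the 10 FGF genes and in 7.52% of the 13989 tested genes with such a region. The shorter match GTGCAT, which pairs with bases 2 to 7, occurred in 3 of the 10 genes and in 31.1% of the 13989. Followed by an A, as GTGCATA, which is also counted as a seed site, it occurred in 2 of the 10, *Fgf2* and *Fgf6*, and in 8.59% of the 13989. *Fgf6* held GTGCAT at 2 places and *Fgf2* and *Fgf10* at 1 each, given here with 10 bases on each side and the match in capitals.
Fgf6, position 273: gtgtggccctGTGCATaagaaaaagc
Fgf6, position 313: gcatgtgtccGTGCATatccacacat
Fgf2, position 3995: aaataagaatGTGCATattaaagaaa
Fgf10, position 611: tggtatgcttGTGCATtctgtctcca
Positions are counted from 1 at the first base of the region. *Fgf7* held none of these matches in its annotated region of 1624 bases. A match is a run of letters in an annotation and not a measured site.

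Between 18609222 and 24753258 reads were counted per mouse, and the share on mitochondrial genes was 6.59% to 14.0%. Values per mouse are CPM, the reads of a gene scaled to a common library size after TMM normalization in edgeR. No gene of the 14410 passed an adjusted p under 0.05 in edgeR's quasi-likelihood test (0%), and 151 genes (1.05%) had an unadjusted p under 0.05, 55 of them higher and 96 lower in miR-501KO mice. Without Pax7Cre mouse 2 there were 267 higher and 186 lower, and without Pax7Cre mouse 4 228 and 242. DESeq2 and edgeR's likelihood ratio test also gave 0 genes. Markers of muscle were present as the tissue label says: the 9 mature fiber genes summed to between 17250 and 46106 CPM and the 5 regenerating fiber genes, among them the embryonic myosin *Myh3*, to between 3250 and 4748 CPM. Pax7Cre mouse 2 had the most mature fiber RNA and Pax7Cre mouse 4 the least by the mean log2 level of the markers. Of 4 keratin genes that mark skin, *Krt14* and *Krt1* had 0 reads in all mice and *Krt5* at most 1, while *Krt10* had 35 to 63 reads in each mouse. In no marker list did a gene differ between genotypes at an unadjusted p under 0.05 in edgeR's test.

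Per kilobase of exon, the receptors *Fgfr1* and *Fgfr4* and the intracellular *Fgf11* were the most abundant members, and the secreted ligands were low. *Fgfr1*, the receptor of muscle stem cells and of many other cells of the tissue, had 17.5 ± 1.35 CPM per kilobase (SD, n = 10 mice). *Fgfr4*, a receptor found in myogenic cells of regenerating muscle, had 13.8 ± 1.55 (SD, n = 10), and *Fgf11* had 13.8 ± 1.67 (SD, n = 10). *Fgfr1* stood above *Fgfr4* in 10 of 10 mice, by 0.35 ± 0.15 on the log2 scale (SD, exact two-sided sign-flip permutation test, p = 0.00195, the smallest 10 mice allow, adjusted p = 0.00352 over 9 neighbouring pairs). With the length of the longest transcript in place of all annotated exons this difference was 1.23. *Fgfr4* and *Fgf11* were not told apart, with a mean difference of 0.0072 ± 0.18 (log2, SD, exact permutation p = 0.914) and *Fgfr4* higher in 5 of 10 mice.

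Below a gap of 2.96 ± 0.61 on the log2 scale came *Fgf1* with 1.86 ± 0.713 and *Fgf7* with 1.61 ± 0.275 CPM per kilobase (SD, n = 10 each). These neighbours were not told apart (log2 difference 0.14 ± 0.55, exact permutation p = 0.428). *Fgf7* lay above *Fgf2*, which had 0.961 ± 0.0871 CPM per kilobase, in 10 of 10 mice (log2 difference 0.72 ± 0.28, exact permutation p = 0.00195, adjusted p = 0.00352). *Fgf6*, a ligand largely restricted to muscle, followed with 0.977 ± 0.338 and *Fgfr3* with 0.799 ± 0.129, and neither was separated from the neighbour above it. The order follows the mean of the log2 values, by which *Fgf6* lies below *Fgf2* although its mean CPM per kilobase is higher. *Fgf6* and *Fgfr3* differed by 0.23 on the log2 scale (exact permutation adjusted p = 0.255). With the longest transcript as length the order turned and the pair was separated, at −0.52 (exact permutation adjusted p = 0.0146). Without Pax7Cre mouse 3 it was separated the other way, at 0.33 (exact permutation adjusted p = 0.0469). *Fgfr2*, whose annotated span reaches 133123350 on chromosome 7 and covers many other genes, had 0.382 ± 0.0987 CPM per kilobase, below *Fgfr3* in 10 of 10 mice. *Fgf10*, a mesenchymal ligand of the same subfamily as *Fgf7*, was lowest with 0.104 ± 0.0585.

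**Figure D1:**
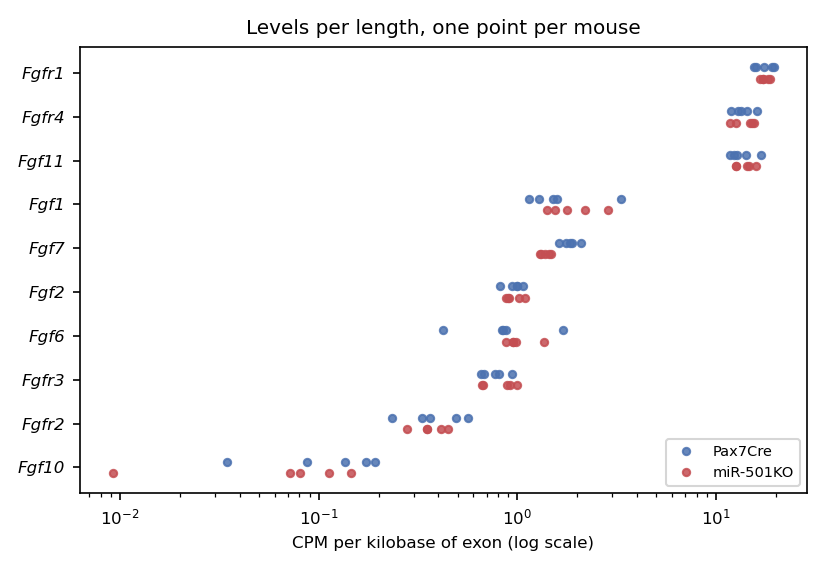
Level of each FGF gene in CPM per kilobase of exon on a log axis, with one point per mouse (blue, 5 Pax7Cre, red, 5 miR-501KO). *Fgfr1*, *Fgfr4* and *Fgf11* stand above 11.7 CPM per kilobase in all mice, and the other 7 genes reach at most 3.32.

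Among the 4 receptors, *Fgfr1* made up 53.9% ± 2.36 of the summed level per length and *Fgfr4* 42.4% ± 2.68 (SD, n = 10), which left 2.47% ± 0.456 for *Fgfr3* and 1.16% ± 0.231 for *Fgfr2*. The shares rest on the length of all annotated exons, and with the longest transcript the log2 difference of *Fgfr1* over *Fgfr4* was 1.23 in place of 0.35. On the exon length they were close in the genotypes, with *Fgfr1* at 54.1% ± 2.63 in Pax7Cre and 53.8% ± 2.36 in miR-501KO mice (SD, n = 5 each). Among the 5 secreted ligands of the list, *Fgf1* held 32.9% ± 7.27, *Fgf7* 29.7% ± 6.06, *Fgf2* 17.8% ± 2.73, *Fgf6* 17.7% ± 5.21 and *Fgf10* 1.86% ± 0.981 of the sum (SD, n = 10). The *Fgf7* share was 33.5% ± 5.68 in Pax7Cre and 25.9% ± 3.86 in miR-501KO mice (SD, n = 5 each), and it rests on the contrast that chose the list. The *Fgf1* share was 30.3% ± 8.28 in Pax7Cre and 35.6% ± 5.74 in miR-501KO mice (SD, n = 5 each), and the groups overlapped. The shares are parts of one sum, so a lower *Fgf7* share by itself raises that of *Fgf1*. They also rest on the exon length. With the longest transcript the log2 difference of *Fgf1* over *Fgf7* in all mice was 0.32 in place of 0.14. Whether the order of *Fgf1* and *Fgf7* differed between genotypes was not tested.

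*Fgf7* encodes keratinocyte growth factor, a ligand made by mesenchymal cells that binds an epithelial splice form of the receptor *Fgfr2*. The gene lies on chromosome 2 from 126034658 to 126091185, plus strand (GRCm38). Its normalized counts in Pax7Cre mice 1 to 5 were 6.14, 6.81, 5.97, 5.70 and 5.24 CPM. In miR-501KO mice 1 to 5 they were 4.24, 4.81, 4.21, 4.45 and 4.66 CPM. Each miR-501KO mouse lay below each Pax7Cre mouse, and the groups did not overlap. Among all genes tested, 11 genes (0.0763%) were lower and 9 (0.0625%) higher without overlap.

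The group means of *Fgf7* were 5.97 ± 0.578 in Pax7Cre and 4.47 ± 0.263 CPM in miR-501KO mice (SD, n = 5 each). Its level in miR-501KO mice was 0.750 times that in Pax7Cre mice (log2 fold change −0.42, standard error 0.109, 95% interval −0.65 to −0.18). The unadjusted p behind the choice of the list was 0.00227 in edgeR's test, at rank 3 of the genes tested, and its adjusted p was 1.00. These levels rest on 84 to 142 reads per mouse. Counting alone would give a coefficient of variation of 9.97% in miR-501KO mice, above the 5.88% measured between them, and 8.92% in Pax7Cre mice, beside 9.68% measured. *Fam227b* overlaps *Fgf7* on the opposite strand, with 0 shared exon bases in GENCODE M21.

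The fold of *Fgf7* was −0.46 to −0.37 on the log2 scale over the fits that each left out a mouse. The markers of fibro-adipogenic progenitors, the fibroblast-like cells of muscle, summed to between 1368 and 2422 CPM in Pax7Cre and between 1699 and 1920 CPM in miR-501KO mice. The median sums were 1733 CPM in Pax7Cre and 1789 CPM in miR-501KO mice. Of the 7 genes, 6 had a log2 fold change below 0, beside 52.1% of all genes tested. The values ran from −0.66 for *Pi16* to 0.072 for *Ly6a*, and 0 had an unadjusted p under 0.05. Within genotype, *Fgf7* had a Pearson r of 0.54 with the score of these markers (Spearman rho 0.27, exact permutation p = 0.281 and 0.520, adjusted p = 0.647 over 60 pairs and 0.776 by rank, n = 10 mice). Without Pax7Cre mice 2 and 3, the farthest from the median score, r was −0.42. In whole muscle, fewer cells of a type and less RNA per cell cannot be told apart.

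*Fgf10*, which acts on the same receptor form as *Fgf7*, had few reads. Its reads per mouse were 14, 15, 3, 10 and 18 in Pax7Cre and 13, 7, 16, 7 and 1 in miR-501KO mice. The means were 0.572 ± 0.295 and 0.386 ± 0.233 CPM (SD, n = 5 each), and the groups overlapped. With a log2 fold change of −0.55 (standard error 0.505, 95% interval −1.64 to 0.55, edgeR adjusted p = 1.00), the genotypes were not told apart. The coefficient of variation between mice was 51.5% in Pax7Cre and 60.5% in miR-501KO mice, where counting alone would give 28.9% and 33.7%. Leaving out 1 mouse moved the log2 value between −0.84, without miR-501KO mouse 3, and −0.25, without miR-501KO mouse 5.

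**Figure D2:**
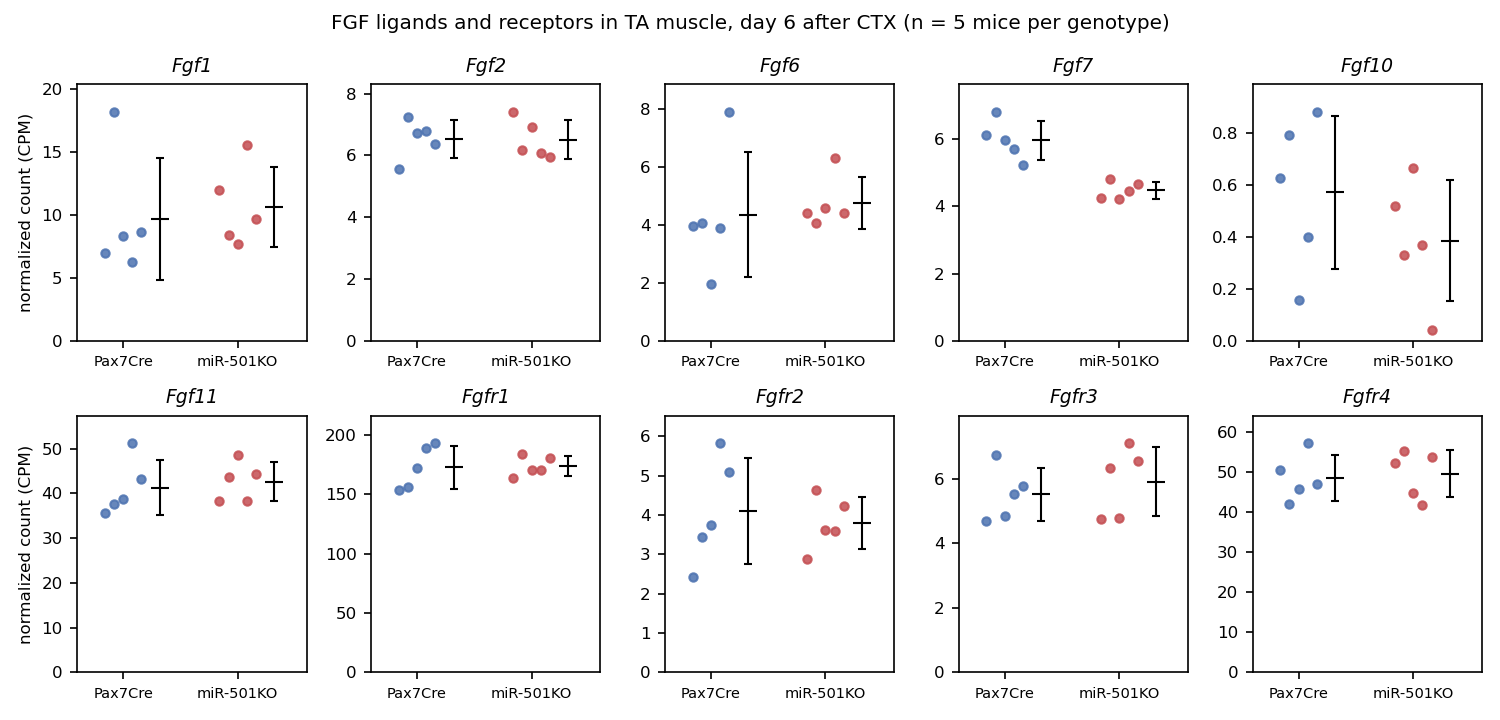
Normalized counts in CPM of the 10 FGF genes, one panel per gene, with one point per mouse, ordered by mouse number within each genotype, and the mean ± SD (n = 5) in black. In *Fgf7* the 5 miR-501KO mice lie at 4.21 to 4.81 CPM, below the Pax7Cre mice at 5.24 to 6.81, and the other 9 genes overlap between genotypes.

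*Fgf1*, or acidic FGF, which binds all of the receptors, varied widely between Pax7Cre mice, with a coefficient of variation of 50.2% where counting alone would give 7.11%. In Pax7Cre mice 1 to 5 it had 6.99, 18.2, 8.29, 6.22 and 8.67 CPM. In miR-501KO mice 1 to 5 it had 11.9, 8.40, 7.66, 15.5 and 9.70 CPM. Pax7Cre mouse 2 was the highest and stood alone in its group, and miR-501KO mice 4 and 1 came next. The log2 fold change was 0.14 (standard error 0.281, 95% interval −0.46 to 0.75, edgeR adjusted p = 1.00). Without Pax7Cre mouse 2 it was 0.49 (standard error 0.192, edgeR unadjusted p = 0.0233, adjusted p = 1.00), and without miR-501KO mouse 4 it was −0.026.

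*Fgf1* was compared with the mature fiber markers, a list of 9 genes such as *Ckm*, muscle creatine kinase, and *Pvalb*, parvalbumin of fast fibers. With genotype means removed, Pearson's r was 0.88 (exact permutation p = 0.00646) and Spearman's rho 0.71 (exact permutation p = 0.0425) over 10 mice. Over 60 pairs of genes and scores the adjusted values were 0.121 and 0.361. The mice with the highest scores were Pax7Cre mouse 2 at 0.82 and miR-501KO mouse 4 at 0.43, as log2 differences from the mean of all mice, and Pax7Cre mouse 4 was lowest at −0.67. Without Pax7Cre mice 2 and 4, the farthest from the median, r was 0.62. None of the 60 pairs passed an adjusted p under 0.05 by either coefficient, and 6 had an exact p under 0.05 by Pearson's r.

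*Fgf2*, or basic FGF, a growth factor for cultured myoblasts, lay at 5.55 to 7.23 CPM in Pax7Cre mice (median 6.71) and at 5.93 to 7.40 in miR-501KO mice (median 6.18). Its means of 6.53 ± 0.625 and 6.51 ± 0.628 CPM (SD, n = 5 each) differed by less than the spread between mice (log2 fold change −0.0025, 95% interval −0.24 to 0.24). *Nudt6* overlaps it on the opposite strand over 640 exon bases, and although the library kit was stranded, the strand setting of the counting is not given in the sources used here, so reads of the pair may not be told apart. The same holds for *Fgfr3*, which shares 998 exon bases with *G630022F23Rik*, for *Fgfr1* with 164 shared with *Gm16159*, and for *Fgf10* with 123 shared with *Gm16263*, all on the opposite strand. On the same strand, where a stranded count cannot separate them, *Fgf2* shares 255 exon bases with *Gm43439* and *Fgfr2* shares 314 with *Ctbp2*.

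*Fgf6* had 3.94, 4.06, 1.95, 3.89 and 7.88 CPM in Pax7Cre mice 1 to 5, from 37 to 161 reads, and 4.40, 4.06, 4.58, 6.30 and 4.41 CPM in miR-501KO mice 1 to 5. Pax7Cre mouse 3 was the lowest and mouse 5 the highest of all mice, so the miR-501KO values lay inside the Pax7Cre range. The log2 fold change was 0.12 (standard error 0.278, 95% interval −0.48 to 0.72, edgeR adjusted p = 1.00). It was 0.45 without Pax7Cre mouse 5 and −0.058 without Pax7Cre mouse 3.

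*Fgf11* had 35.7, 37.5, 38.8, 51.1 and 43.2 CPM in Pax7Cre mice 1 to 5 and 38.3, 43.6, 48.5, 38.2 and 44.3 CPM in miR-501KO mice 1 to 5. The highest value was that of Pax7Cre mouse 4, and the groups overlapped. The 95% interval of its log2 fold change, −0.18 to 0.27, was the narrowest of the 6 *Fgf* genes of the list.

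Of the receptors, *Fgfr1* had 153, 156, 172, 189 and 193 CPM in Pax7Cre mice 1 to 5, from 2965 to 4716 reads, and 163, 184, 171, 170 and 181 CPM in miR-501KO mice 1 to 5. The miR-501KO mice all lay inside the Pax7Cre range. With means of 172.8 ± 18.1 and 173.8 ± 8.29 CPM (SD, n = 5 each), the receptor differed by 0.0081 on the log2 scale (standard error 0.0849, 95% interval −0.18 to 0.19). That interval covers levels from 0.885 to 1.14 times those of Pax7Cre mice.

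*Fgfr4* had 50.5, 42.1, 45.7, 57.1 and 47.0 CPM in Pax7Cre mice 1 to 5 and 52.2, 55.2, 44.7, 41.8 and 53.7 CPM in miR-501KO mice 1 to 5. The groups overlapped, and the log2 fold change was 0.030 (standard error 0.101, 95% interval −0.19 to 0.25, edgeR adjusted p = 1.00). *Fgfr4* was compared with the myogenic progenitor score, the mean log2 level of *Pax7*, *Myf5*, *Myod1*, *Cdh15* and *Myog* (within genotype Pearson's r 0.84, exact permutation p = 0.00271, rho 0.77, exact permutation p = 0.0109, adjusted p = 0.121 and 0.327, n = 10 mice). Without Pax7Cre mice 2 and 4 r was 0.73. It also had r of 0.77 with the regenerating fiber score (rho 0.76, exact permutation p = 0.00806 and 0.0211, adjusted p = 0.121 and 0.347), and 0.82 without Pax7Cre mouse 2 and miR-501KO mouse 4. With the endothelial score r was −0.83, and −0.66 without Pax7Cre mouse 4 and miR-501KO mouse 2 (rho −0.87, exact permutation p = 0.00715 and 0.00639, adjusted p = 0.121 and 0.327). The remaining pairs with an exact permutation p under 0.05 by Pearson's r were *Fgfr4* with the mature fiber score (r −0.72, rho −0.68, exact p = 0.0183 and 0.0339, adjusted p = 0.220 and 0.347) and *Fgf1* with the regenerating fiber score (r −0.82, rho −0.42, exact p = 0.0310 and 0.269, adjusted p = 0.310 and 0.746). Without the 2 mice farthest from the median score, r was −0.55 for the former, leaving out Pax7Cre mice 2 and 4, and 0.026 for the latter, leaving out Pax7Cre mouse 2 and miR-501KO mouse 4, so the latter rested on those mice. By rank alone, 3 more pairs had an exact permutation p under 0.05. They were *Fgf6* with the mature fiber score (rho 0.70, r 0.35, exact p = 0.0267 and 0.481, adjusted p = 0.347 and 0.736), *Fgf10* with the endothelial score (rho 0.72, r 0.49, exact p = 0.0347 and 0.187, adjusted p = 0.347 and 0.631) and *Fgf2* with the fibro-adipogenic progenitor score (rho 0.60, r 0.53, exact p = 0.0482 and 0.117, adjusted p = 0.361 and 0.587). Without the 2 mice farthest from the median score, r was 0.75, 0.68 and 0.51 in that order. None of these coefficients passed adjustment over the 60 pairs.

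**Figure D3:**
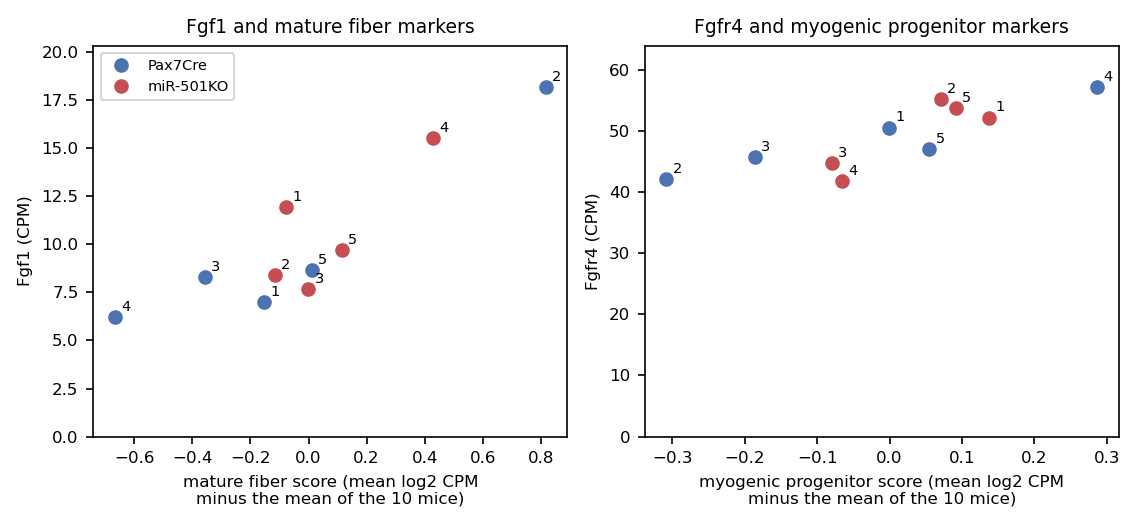
CPM of *Fgf1* against the mature fiber score (left) and of *Fgfr4* against the myogenic progenitor score (right), each score a mean log2 CPM minus the mean of the 10 mice, with mouse numbers beside the points. *Fgf1* is highest in Pax7Cre mouse 2 and miR-501KO mouse 4, which have the highest fiber scores, and *Fgfr4* is highest in Pax7Cre mouse 4, which has the highest progenitor score.

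*Fgfr2*, which has a splice form for mesenchymal and one for epithelial ligands that gene counts cannot separate, had 2.42, 3.43, 3.75, 5.82 and 5.09 CPM in Pax7Cre mice 1 to 5. In miR-501KO mice 1 to 5 it had 2.88, 4.63, 3.62, 3.60 and 4.24 CPM, all inside the Pax7Cre range. The log2 difference was −0.12 (standard error 0.222, 95% interval −0.60 to 0.36), and 0.047 without Pax7Cre mouse 4. *Fgfr3*, a receptor best known from cartilage, had 4.70 to 6.75 CPM in Pax7Cre mice (median 5.54) and 4.76 to 7.10 in miR-501KO mice (median 6.32). The log2 difference was 0.094 (standard error 0.150, 95% interval −0.23 to 0.42).

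Across the 10 FGF genes, 1 was lower at an unadjusted p under 0.05 in edgeR's test, *Fgf7* itself, beside 0.666% of all genes tested, and 0 were higher, beside 0.382%. Since *Fgf7* chose the list, nothing is read from this count. The median log2 fold change of the members was 0.019, with 4 of 10 below 0, beside −0.0042 over all genes tested, of which 52.1% were below 0.

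**Figure D4:**
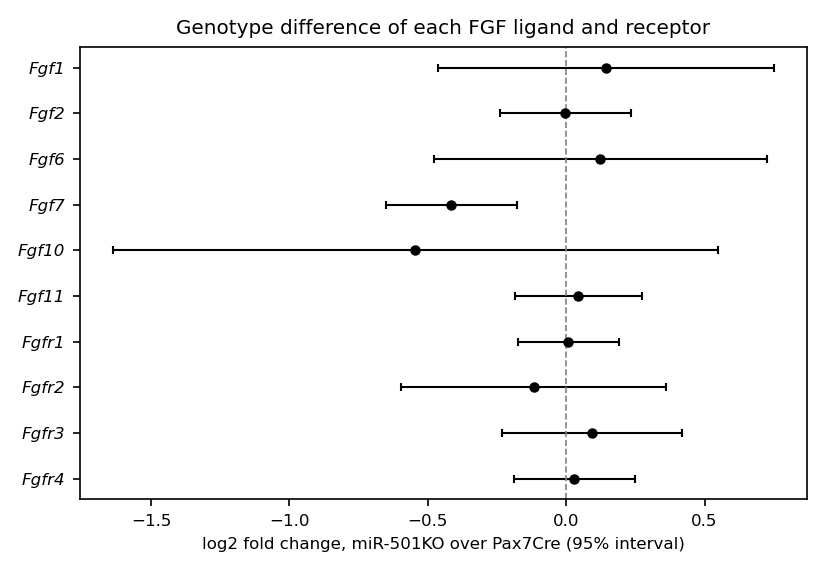
Log2 fold change of each FGF gene, miR-501KO over Pax7Cre, with the 95% interval from edgeR's fit (n = 5 mice per genotype). The interval of *Fgf7*, the gene that chose the list, runs from −0.65 to −0.18, and those of the other 9 genes include 0, from the narrow one of *Fgfr1* to the wide one of *Fgf10*.

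Some members varied together from mouse to mouse, a comparison that does not use the genotype contrast. With genotype means removed, *Fgfr1* and *Fgfr2* had a Pearson r of 0.94 over 10 mice (exact permutation p = 3.47e-04, adjusted p = 0.0156 over 45 pairs of members) and a Spearman rho of 0.94 (exact permutation p = 0.00146, adjusted p = 0.0656). Without Pax7Cre mice 1 and 5, the farthest from the median of *Fgfr1*, r was 0.95. *Fgf11* had r of 0.80 with *Fgfr2* (rho 0.84, exact permutation p = 0.0141 and 0.00757, adjusted p = 0.317 and 0.170) and 0.75 with *Fgfr1* (rho 0.79, exact permutation p = 0.0290 and 0.0183, adjusted p = 0.435 and 0.274). Of the 45 pairs, *Fgfr1* with *Fgfr2* alone passed an adjusted p under 0.05, by Pearson's r and not by rank. These pairs were examined after the values had been seen.

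The 3 genes whose within-genotype deviations were most like those of a member were found among all genes tested, as a description over 10 mice. For *Fgf7* they were *Kynu*, *Dctn6* and *Rhbdd3*, with r of 0.92, 0.91 and 0.89. For *Fgfr4* they were *Wwp2*, *Tnfrsf26* and *Ldb1*, with r of 0.98, 0.96 and 0.96. For *Fgf1* they were *Psme4*, *Kpna1* and *Aldh6a1*, with r of 0.98, 0.97 and 0.97. For *Fgfr1* they were *Sfswap*, *Daam2* and *Neo1*, with r of 0.97, 0.95 and 0.95. For *Fgf6* they were *Rell2*, *Nr4a3* and *Wdr18*, with r of 0.98, 0.94 and 0.91. For *Fgf2* they were *Zfp748*, *Cdc14b* and *D930036K23Rik*, with r of 0.94, 0.93 and 0.89, and for *Fgf10* *Zscan2*, *Galnt3* and *Coq4*, with r of 0.93, 0.91 and 0.91. For *Fgfr2* they were *Xpo6*, *Abcc10* and *Cc2d1a*, with r of 0.96, 0.95 and 0.95, and for *Fgfr3* *Col4a3*, *Vps72* and *Neurl2*, with r of 0.95, 0.93 and 0.93. Each was picked as one of the largest coefficients among the 14410 genes over the same libraries.

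Around the ligands and receptors, 71 further genes of the pathway were listed by role in 5 lists, and 58 were tested. Of these, 2 were lower and 0 higher in miR-501KO mice at an unadjusted p under 0.05 (3.45%, beside 1.05% of all genes tested), and 0 passed adjustment over all genes. Leaving out 1 mouse gave 0 to 4 lower and 0 to 3 higher genes, with 4 lower and 0 higher without Pax7Cre mouse 2, 1 lower and 3 higher without Pax7Cre mouse 4, and 0 of either without Pax7Cre mouse 5 or miR-501KO mouse 1. The median over the 58 was −0.011 on the log2 scale, and 33 lay below 0, beside 52.1% of all genes tested.

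The genes at an unadjusted p under 0.05 were *Fgfrl1* and *Fgf9*. *Fgfrl1* encodes a receptor-like membrane protein that binds FGFs but has no kinase domain. It had 105.7, 100.0, 86.0, 133 and 133 CPM in Pax7Cre mice 1 to 5 and 66.0, 79.9, 98.2, 75.7 and 110 CPM in miR-501KO mice 1 to 5. Of the miR-501KO mice, 3 lay below all Pax7Cre mice, and the groups overlapped. The means were 112 ± 20.8 and 86.0 ± 17.8 CPM (SD, n = 5 each), with a log2 fold change of −0.38 (standard error 0.154, edgeR unadjusted p = 0.0298, adjusted p = 1.00).

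*Fgf9*, a secreted ligand, had only 10 to 32 reads per mouse. Its values were 1.43, 0.897, 1.00, 1.24 and 1.57 CPM in Pax7Cre mice 1 to 5 and 0.400, 1.09, 0.666, 0.795 and 0.932 CPM in miR-501KO mice 1 to 5, and the groups overlapped. The log2 fold change was −0.68 (standard error 0.269, edgeR unadjusted p = 0.0261, adjusted p = 1.00). Leaving out 1 mouse moved *Fgfrl1* between −0.48 and −0.29 and *Fgf9* between −0.83 and −0.50. *Fgfrl1* no longer had an unadjusted p under 0.05 in edgeR's test without Pax7Cre mouse 4 or 5 or miR-501KO mouse 1, 2 or 4, which is 5 of 10 fits. *Fgf9* did not without Pax7Cre mouse 1 or 5 or miR-501KO mouse 1 or 3, which is 4 of 10 fits.

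**Figure D5:**
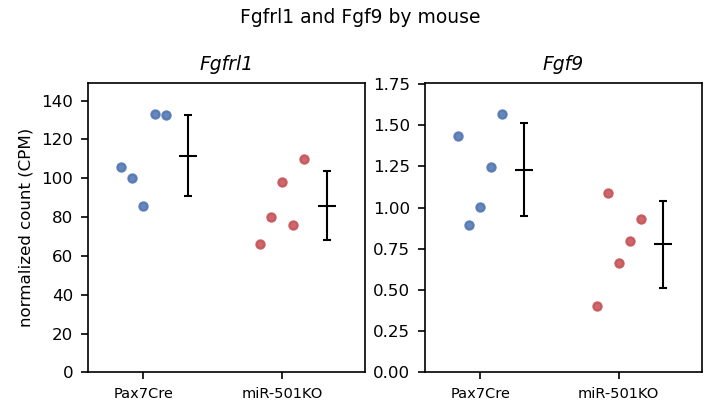
Normalized counts in CPM of *Fgfrl1* and *Fgf9* with one point per mouse, ordered by mouse number, and the mean ± SD (n = 5) in black. The genotypes overlap in both genes, with *Fgfrl1* at 66.0 to 110 CPM in miR-501KO mice beside 86.0 to 133 in Pax7Cre mice.

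Of 16 other *Fgf* genes, which include *Fgf12*, *Fgf13* and *Fgf14* of the intracellular subgroup, 5 were tested, and 2 of the rest, *Fgf15* and *Fgf23*, had 0 reads in all mice. *Fgf21*, an endocrine ligand that stressed muscle can release, had 14 to 87 reads per mouse, with 0.739 to 3.05 CPM in Pax7Cre and 0.901 to 3.48 CPM in miR-501KO mice. The log2 difference was 0.57 (standard error 0.395, edgeR adjusted p = 1.00), and 1.00 without Pax7Cre mouse 4 (unadjusted p = 0.0167, adjusted p = 0.996). The co-receptor genes *Kl* and *Klb*, which endocrine FGFs need, had at most 7 and 19 reads in a mouse and were not tested.

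Of 14 genes for the decoy receptor, co-receptors and binding proteins, 12 were tested. Among these, 8 had a log2 fold change above 0, where 52.1% of all genes tested lay below 0. The second after *Fgfrl1* by p was *Gpc4*, a glypican that carries heparan sulfate, with 46.4 ± 6.19 and 42.1 ± 6.82 CPM (SD, n = 5 each, log2 fold change −0.14, standard error 0.119). All 11 genes of heparan sulfate synthesis and editing were tested, with log2 fold changes from −0.11 to 0.045. Among them *Hs6st2*, a sulfotransferase, had −0.11 and *Sulf1*, a sulfatase that removes such groups outside the cell, −0.084. All 16 adaptor and MAP kinase genes were tested, with log2 fold changes from −0.22 for *Frs3* to 0.072 for *Frs2*, the docking proteins that link the receptors to Ras. In both lists 0 genes had an unadjusted p under 0.05 in edgeR's test, beside 1.05% of all genes tested. Without Pax7Cre mouse 2, *Hs6st2* had a log2 fold change of −0.20 (edgeR unadjusted p = 0.0366, adjusted p = 0.999).

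The 14 genes listed as feedback inhibitors and transcriptional targets of FGF signaling were all tested. Of these, 10 had a log2 fold change below 0, beside 52.1% of all genes tested. Their median was −0.054, and 0 had an unadjusted p under 0.05, beside 1.05% of all genes tested. Signaling itself was not measured. The 2 with the smallest p were *Etv1*, an ETS transcription factor, with 5.07 ± 0.549 and 4.30 ± 0.780 CPM (SD, n = 5 each, log2 fold change −0.24, standard error 0.147), and *Spry2*, an inhibitor of receptor tyrosine kinase signaling, with 20.5 ± 2.61 and 18.1 ± 3.13 CPM (SD, n = 5 each, log2 fold change −0.18, standard error 0.124). *Dusp6*, a phosphatase of ERK, had a log2 fold change of −0.071 and *Etv4* one of 0.16. Neither of these had an unadjusted p under 0.05. With 1 mouse left out, some of the 14 genes did in edgeR's test. Lower were *Spry2* without miR-501KO mouse 3, *Spry1* without Pax7Cre mouse 3 and *Spred3* without Pax7Cre mouse 2. Higher was *Dusp4* without Pax7Cre mouse 4.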

How the data were processed

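According to the study's methods, the authors aligned the reads of stranded libraries with STAR. The submitters' processing notes also name featureCounts, R 3.5.1 and GRCm38.p5, without their roles. The authors deposited raw counts per Ensembl gene for each mouse, without normalization. Strand setting, multi-mapping reads and batches are not given in the sources used here. The labels do not tie equal replicate numbers together, p-values measure the spread between these mice, and the libraries within a genotype differed beyond counting noise (chi-square per degree of freedom at least 9.47). Of 25700 identifiers, 25664 were named from GENCODE M21 (GRCm38), which also gave coordinates and lengths. Each mouse had 18609222 to 24753258 counts. For most members the spread between mice exceeded that of counting alone.

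In R 4.3.3, edgeR 4.0.16 with filterByExpr (minimum count 10, total 15), TMM and glmQLFTest compared the genotypes, with genotype as the single factor and Benjamini-Hochberg adjustment over 14410 genes. On simulated data of this comparison with 14410 genes, 88% of 200 genes changed by a log2 fold change of 1 were recovered, with 4.35% false calls. Smaller changes were not simulated, and the members had log2 fold changes from −0.55 to 0.14, so recovery at their size is not known. Levels per length used log2(CPM per kilobase of exon + 0.01) and sign-flip permutation over 10 mice (scipy 1.17.1, numpy 2.4.6). Correlations used log2 CPM (prior count 2) with genotype means removed and all 14400 permutations within genotype. Members and lists were chosen with earlier results of these data known. Named genes are the members, the 2 of each pathway list with the smallest p, and the 3 most like each member, of which those for *Fgf11* are not reported here. *Fgf12* to *Fgf15*, *Fgf23*, *Kl*, *Klb*, *Dusp4*, *Dusp6*, *Etv4*, *Spry1*, *Spred3* and the marker genes fall outside this rule. They were picked with their values known. Alternatives were DESeq2 1.42.0 and its size factors, the likelihood ratio test, robust empirical Bayes, other filters, a replicate block, other lengths, pseudocounts, library scaling and scores, and leaving out each mouse. The correlations between members and the seed match followed by A were added after seeing the data. Uninjured muscle and the study's single cell data were not used here.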

Additional observations from a re-analysis of the deposited data

Results flagged for a closer look

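In each genotype, 32 quantities (the members, the named pathway genes and the summed markers of each cell type) were searched for a mouse whose gap to the nearest of the other 4 was above 0.71 of the group's range. Of 64 groups, 3 had such a mouse, where chance gives about 1 in 20, or 3.2.

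*Fgf1* was at 18.2 CPM in Pax7Cre mouse 2, far above the other Pax7Cre mice at 6.22 to 8.67. Its mature fiber score, 0.82, exceeded that of each other mouse, and the part of mature fibers in its *Fgf1* value was not tested. *Fgf6* was at 6.30 CPM in miR-501KO mouse 4, above the others of its group at 4.06 to 4.58. The summed T cell markers *Cd3e*, *Cd3d* and *Trbc2* were at 14.9 CPM in Pax7Cre mouse 2, beside 5.39 to 7.61 in the other Pax7Cre mice.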

How the results depend on the processing

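Few reads lay behind *Fgf10*, with 1 to 18 per mouse, and *Fgf9*, with 10 to 32. No gene reached an adjusted p under 0.05 with 7 other settings or when any of the 10 mice was left out (0 genes each, beside 151 unadjusted in edgeR's quasi-likelihood test). At an unadjusted p under 0.05, the 55 higher and 96 lower genes became 153 and 159 without the low-count filter. Requiring 10 counts per mouse left 36 higher genes. The replicate block, with equally numbered mice as pairs, gave 87 higher genes. The correlation of deviations ranged from −0.30 to 0.34 over the 5 pairs, with 3 above 0.1 and 2 below 0. Of 5 mice, 3 matched their own number best. Whether equal numbers mark paired mice was not tested. The labels do not tie the numbers together, so the mice were compared without pairs. The block gave *Fgf7* a log2 fold change of −0.41. Leaving out 1 mouse gave 39 to 267 higher and 59 to 242 lower genes, 1 to 2 members at an unadjusted p under 0.05, and 0 to 3 higher and 0 to 4 lower pathway genes. The extremes were set by Pax7Cre mouse 2 (267 higher genes, *Fgf1* as the further member, 4 lower pathway genes), Pax7Cre mouse 4 (242 lower genes, 3 higher pathway genes), miR-501KO mouse 1 (39 higher and 59 lower genes) and, for the fewest lower pathway genes, Pax7Cre mouse 5 or miR-501KO mouse 1. Without Pax7Cre mouse 2 the excess of lower genes turned into one of higher genes.

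The log2 fold changes that changed sign when 1 mouse was left out lay between −0.026 and 0.49 for *Fgf1*, −0.056 and 0.034 for *Fgf2*, −0.058 and 0.45 for *Fgf6*, −0.0068 and 0.13 for *Fgf11*, −0.032 and 0.050 for *Fgfr1*, −0.26 and 0.047 for *Fgfr2*, −0.018 and 0.096 for *Fgfr4*, and −0.14 and 0.0050 for *Sulf1*. The level difference of *Fgfr4* and *Fgf11* lay between −0.024 and 0.045, and between *Fgf2* and *Fgf6* between −0.081 and 0.15. Between *Fgf6* and *Fgfr3* it was −0.52 with the longest transcript as length, where the length of *Fgfr3* drops from 7158 to 4245 bases and that of *Fgf6* stays at 4657. Leaving out 1 mouse left 5 or 6 of the 9 neighbouring pairs and 0 of the 60 marker pairs under an adjusted p of 0.05. Among the log2 fold changes of the 10 members and 10 named pathway genes and the 9 level differences, no other changed sign under the alternatives run for it.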
